A study of Mus musculus with 6 samples.

Results

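The 10 genes described here are the shared machinery through which hepatocytes receive interleukin-6 (IL-6) family cytokines: the receptor chains Il6ra, Il6st, Osmr and Lifr, the kinase Jak1, the transcription factor Stat3, the inhibitors Socs1 and Socs3, and the C/EBP transcription factors Cebpb and Cebpd. They were chosen by gene name from GENCODE release M21, matched through the versioned Ensembl identifier, and are 10 of the 55450 genes counted. All 10 passed the filter on low counts, as did 17037 genes in all. Counts came from 6 bulk RNA-Seq libraries of primary hepatocytes, isolated by collagenase perfusion of the livers of C57BL/6 mice (male C57BL/6J in the study's methods). In 3 libraries the liver was undamaged (0 h), and in the other 3 it had undergone partial hepatectomy (PHx), an operation that cuts away the greater part of the organ, 48 h earlier. Mice were 10 to 12 weeks old by the labels and slightly younger by the methods, were fed a normal diet and carried no engineered allele. Each library is a separate hepatocyte preparation by the study's account, and the 0 h mice were healthy rather than sham-operated, so surgery and loss of liver mass cannot be told apart.

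IL-6 binds IL-6 receptor alpha (Il6ra), and the pair then engages gp130 (Il6st), the signal-transducing chain used by nearly all cytokines of the family. Leukemia inhibitory factor (LIF) instead signals through Lifr with gp130, and oncostatin M (OSM) in the mouse mainly through Osmr with gp130. The chains carry JAK kinases that phosphorylate STAT3, which enters the nucleus and switches on genes including Socs3, whose protein binds gp130 and JAK and shuts the signal down. In liver this pathway is known for driving the acute-phase response, in which hepatocytes secrete plasma proteins such as serum amyloid A and fibrinogen, and for its early activity after PHx. C/EBP beta and C/EBP delta act beside STAT3 on many of the same genes.

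At 48 h, 5 of the 10 genes were higher (Osmr, Socs3, Cebpd, Stat3 and Il6ra), 1 was lower (Lifr), and 4 did not pass the test (Il6st, Jak1, Cebpb and Socs1). A gene was called where edgeR's quasi-likelihood test gave a Benjamini-Hochberg adjusted p under 0.05 over all genes tested. By that rule 21.4% of all genes tested were higher and 19.3% were lower, 40.7% in all. With a log2 fold change of at least 1 also required, 3 of the 10 genes were higher and 1 lower, beside 9.69% and 7.94% of all genes tested. The time points did not overlap in 7 of the 10 genes, with the 48 h libraries on top in 6 (the 5 higher ones and Jak1) and at the bottom in 1 (Lifr), beside 27.8% and 25.0% of all genes tested. The median log2 fold change of the 10 genes was 0.41, against -0.0033 over all genes tested. Levels below are CPM (read counts scaled to a common library size) after TMM normalization, which rescales each library so that most genes match, and are given in the order of replicates 1, 2 and 3.

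**Figure D1:**
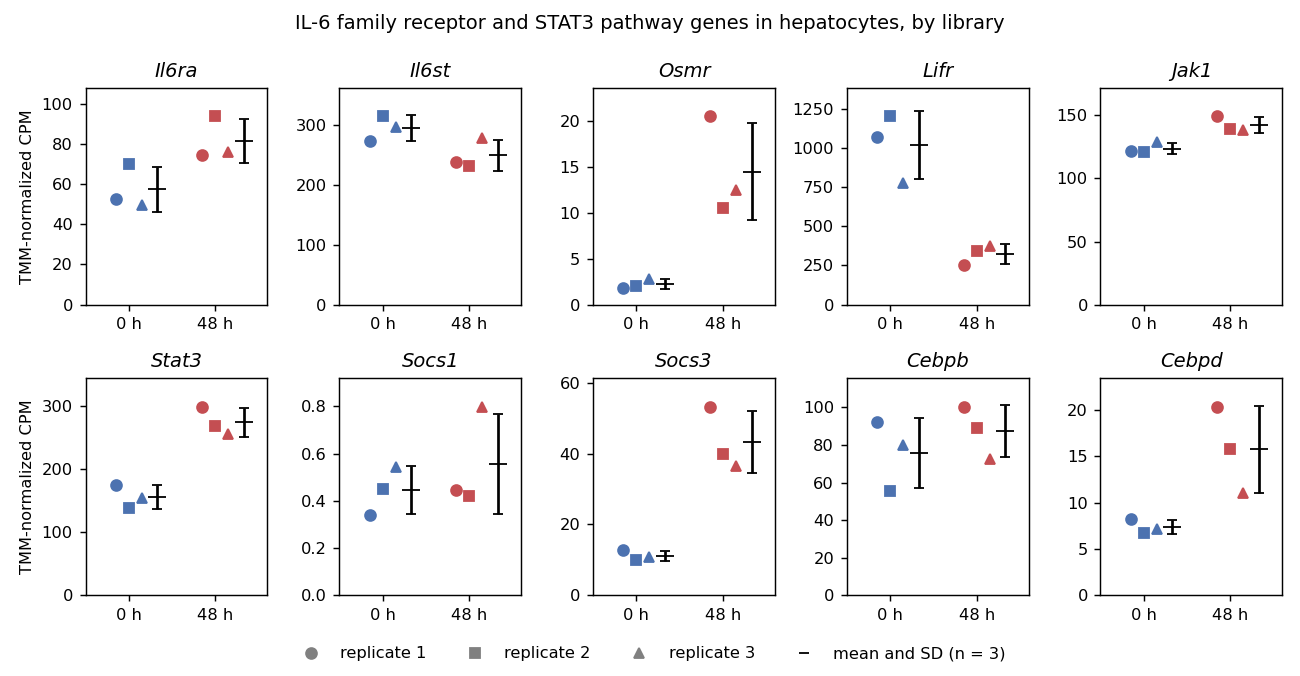
TMM-normalized CPM (vertical axes, linear, each from 0) of the 10 genes in the 3 libraries at 0 h and the 3 at 48 h, with symbols for the replicates and black bars for mean and SD (n = 3). Osmr, Socs3, Stat3, Cebpd, Il6ra and Jak1 have all 48 h libraries above all 0 h libraries, Lifr has them all below, and Il6st, Socs1 and Cebpb overlap.

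Among the receptors, OSM receptor and LIF receptor moved in opposite directions. Osmr (ENSMUSG00000022146.12, chromosome 15, 6813577 to 6874969, minus strand, GRCm38), the chain that pairs with gp130 to bind OSM, stood at 1.77, 2.06 and 2.83 CPM at 0 h and at 20.5, 10.5 and 12.4 CPM at 48 h. The 0 h values were all low and the first 48 h library was the highest, with no overlap between times. Its log2 fold change was 2.70 ± 0.28 (SE, n = 3 per time), a 6.48-fold rise with an edgeR adjusted p of 3.67e-05, and 2.71% of all genes tested had a larger log2 fold change. Without the first 48 h library the rise was 2.34 on the log2 scale.

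Lifr (ENSMUSG00000054263.12, chromosome 15, 7090614 to 7197489, plus strand) was the most abundant of the 4 receptor mRNAs at 0 h, at 1069, 1202 and 777.5 CPM. At 48 h its libraries held 251.6, 340.2 and 372.6 CPM, so the lowest 0 h library was still above the highest 48 h library. The log2 fold change was -1.66 ± 0.20 (SE, n = 3 per time), with an edgeR adjusted p of 0.000116, which corresponds to a 3.16-fold higher level at 0 h. A lower log2 fold change was found in 2.56% of all genes tested. Osmr and Lifr are close neighbours on chromosome 15, separated by 216 kb that hold 1 annotated gene and no protein-coding one.

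Il6ra (ENSMUSG00000027947.11, chromosome 3, 89864059 to 89913196, minus strand) is the ligand-binding chain that gives a cell its response to IL-6 itself. It measured 52.4, 70.0 and 49.5 CPM at 0 h and 74.3, 93.8 and 76.1 CPM at 48 h. The highest 0 h library lay just under the lowest 48 h library. The rise was 1.42-fold, a log2 fold change of 0.51 ± 0.15 (SE, n = 3 per time) with an edgeR adjusted p of 0.0212. This call was lost with upper quartile normalization (adjusted p = 0.0611) and without 0 h replicate 1 (0.0801), 0 h replicate 3 (0.0853) or 48 h replicate 2 (0.11), and the adjusted p ranged from 0.00295 to 0.11 over 18 alternatives.

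Il6st (ENSMUSG00000021756.12, chromosome 13, 112464070 to 112510086, plus strand), which encodes gp130, the chain that IL-6, LIF and OSM receptors share, held 273.4, 315.3 and 297.6 CPM at 0 h and 239.2, 231.0 and 278.0 CPM at 48 h. The ranges overlapped through the third 48 h library. Its log2 fold change was -0.24 ± 0.13 (SE, n = 3 per time) and did not pass the test (edgeR adjusted p = 0.148).

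Set against gp130 within each library, the makeup of the receptor mRNAs was different at the 2 times. Per kb of merged exon, Lifr over Il6st was 4.03, 3.93 and 2.69 at 0 h and 1.08, 1.52 and 1.38 at 48 h. Osmr over Il6st was 0.00593, 0.00599 and 0.00872 at 0 h and 0.0785, 0.0416 and 0.0409 at 48 h. Lifr over Osmr accordingly went from 547.5 ± 207.1 (SD, n = 3) to 28.0 ± 12.4 (SD, n = 3). Per kb of longest transcript the same ratio was 277 ± 105 before PHx and 14.2 ± 6.26 after it (SD, n = 3 each). Lifr mRNA remained above Osmr mRNA in every library by either length, and no ratio was tested. Il6ra over Il6st was 0.248 ± 0.036 before PHx and 0.424 ± 0.088 after it (SD, n = 3 each).

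Receptors of this family are also expressed by other liver cells, so the markers of those cells were measured in the same libraries. Hepatocyte markers took 12.5% ± 1.03 of gene counts at 0 h against 9.27% ± 0.372 at 48 h (SD, n = 3 each), and 6 of 15 were lower. The 14 endothelial markers summed to between 310.9 and 490.8 CPM at 0 h and between 216.0 and 246.3 CPM at 48 h, and 13 of them were lower, none higher. Fewer cells of a type and less RNA per cell cannot be told apart in bulk RNA. The 12 Kupffer cell markers summed to 90.1 to 134.6 CPM at 0 h and 123.4 to 153.4 CPM at 48 h, with 3 higher and 1 lower. The 12 stellate and fibroblast markers summed to 76.5 to 123.8 CPM and 72.2 to 86.6 CPM, with 2 higher and 1 lower. The 7 cholangiocyte markers summed to 9.22 to 20.7 CPM at 0 h and 16.4 to 26.0 CPM at 48 h, with 1 of the 2 tested higher. The 10 lymphocyte markers summed to 2.89 to 4.29 CPM and 1.57 to 2.29 CPM, and the only one tested was lower. The 10 neutrophil markers summed to 0.0903 to 0.408 CPM at 0 h and 0.683 to 1.06 CPM at 48 h, without overlap and with 8 of them at 3 counts or fewer in every library and 3 (Mpo, Ltf and Retnlg) at 0. Two-sided exact permutation tests of the shares of counts on each list gave p = 0.1 for hepatocyte, endothelial, neutrophil and lymphocyte markers, the smallest p that 3 libraries against 3 can give, and p = 0.2 to 0.6 for the other lists. The part of these cells in the receptor values was not tested.

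Jak1 (ENSMUSG00000028530.14, chromosome 4, 101152367 to 101265282, minus strand), the main kinase of gp130, stood at 122, 121 and 129 CPM at 0 h and 149, 139 and 139 CPM at 48 h. All 48 h values were above all 0 h values, but the log2 fold change was only 0.20 ± 0.10 (SE, n = 3 per time) and did not pass (edgeR adjusted p = 0.146). Scaled by library size alone, which moves the median of all genes by 0.20 on the log2 scale, Jak1 passed with a log2 fold change of 0.40 and an adjusted p of 0.00982, within a range of 0.00982 to 0.375 over 18 alternatives.

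Stat3 (ENSMUSG00000004040.16, chromosome 11, 100885098 to 100939540, minus strand) is both the transcription factor at the centre of the pathway and a known target of its own protein. It held 174, 137 and 154 CPM at 0 h and 299, 267 and 255 CPM at 48 h, without overlap. The rise was 1.76-fold, a log2 fold change of 0.82 ± 0.13 (SE, n = 3 per time) with an edgeR adjusted p of 0.000677. These are mRNA levels, and the phosphorylation that activates STAT3 was not measured.

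Of the 2 inhibitors, Socs3 rose and Socs1 stayed under 1 CPM in every library. Socs3 (ENSMUSG00000053113.3, chromosome 11, 117966079 to 117970047, minus strand) had 12.7, 9.83 and 10.8 CPM at 0 h and 53.4, 40.0 and 36.6 CPM at 48 h. The lowest 48 h value was well clear of the highest 0 h value. Its 3.91-fold rise, a log2 fold change of 1.97 ± 0.16 (SE, n = 3 per time), had the smallest adjusted p of the 10 genes (edgeR, 7.8e-06). Set against Stat3 per kb in the same library, Socs3 was 0.235 ± 0.00518 before PHx and 0.519 ± 0.062 after it (SD, n = 3 each).

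Socs3 is a textbook STAT3 target, so the reference promoters of the 10 genes were searched for the letters that STAT3 and C/EBP proteins bind. RefSeq promoters of GRCm38.p6 (250 bases before to 50 after a start) matched 9 of the 10 genes. The STAT letters TTCNNNGAA, on either strand, were in 8.30% of all 32851 promoters, and the C/EBP letters TTGCNNAA, on either strand, in 10.8%. Among the 9, only Socs3 held the STAT letters and none held the C/EBP letters. Its 250 bases upstream of the start (chr11:117969367-117969616, minus strand, within the gene's GENCODE span) are shown because it is the inhibitor that rose, with the match at -154 to -146 from the start in capitals.
Socs3: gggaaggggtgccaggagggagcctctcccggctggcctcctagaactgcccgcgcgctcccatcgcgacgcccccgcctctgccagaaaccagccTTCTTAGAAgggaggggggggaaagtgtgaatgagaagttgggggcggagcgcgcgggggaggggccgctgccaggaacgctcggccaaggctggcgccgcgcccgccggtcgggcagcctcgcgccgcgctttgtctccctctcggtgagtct

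Socs1 (ENSMUSG00000038037.5, chromosome 16, 10782240 to 10785536, minus strand), an inhibitor of JAK kinases best known from interferon signalling, was counted only 10, 14 and 18 times at 0 h and 15, 15 and 28 times at 48 h. Its log2 fold change was 0.31 ± 0.37 (SE, n = 3 per time), with overlapping times and an edgeR adjusted p of 0.542. It turned to -0.06 without the third 48 h library. For scale, a gene with 3 counts has 0.0825 to 0.0955 CPM before TMM scaling.

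Cebpd (ENSMUSG00000071637.5, chromosome 16, 15887286 to 15891031, plus strand), a C/EBP factor induced in the acute-phase response, rose while Cebpb did not pass the test. Cebpd went from 8.24, 6.73 and 7.11 CPM at 0 h to 20.4, 15.8 and 11.1 CPM at 48 h. The 48 h libraries spread 1.84-fold among themselves and still lay above all at 0 h. The log2 fold change was 1.10 ± 0.21 (SE, n = 3 per time) with an edgeR adjusted p of 0.00188.

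Cebpb (ENSMUSG00000056501.3, chromosome 2, 167688915 to 167690418, plus strand), the IL-6-responsive C/EBP factor of hepatocytes, held 92.4, 55.7 and 79.7 CPM at 0 h and 101, 89.0 and 72.7 CPM at 48 h. These ranges overlapped, and the log2 fold change of 0.20 ± 0.18 (SE, n = 3 per time) did not pass (edgeR adjusted p = 0.409). It ranged from 0.02 (without 0 h replicate 2) to 0.37 (without 0 h replicate 1) when each library was left out. Whether the difference between Cebpd and Cebpb exceeds chance was not tested.

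Some of these loci share bases with genes on the other strand, and whether the counting used strand is not given in the sources used here. Cebpb shares 20.7% of its exon bases with Tmem189, which was higher at 48 h (log2 fold change 0.66). Cebpd shares 15.0% with Spidr, also higher (1.01). Il6ra shares 2.80% with the antisense gene Gm42809, which was lower (-1.75). Without strand, reads from a gene and its partner in the shared stretch cannot be told apart.

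**Figure D2:**
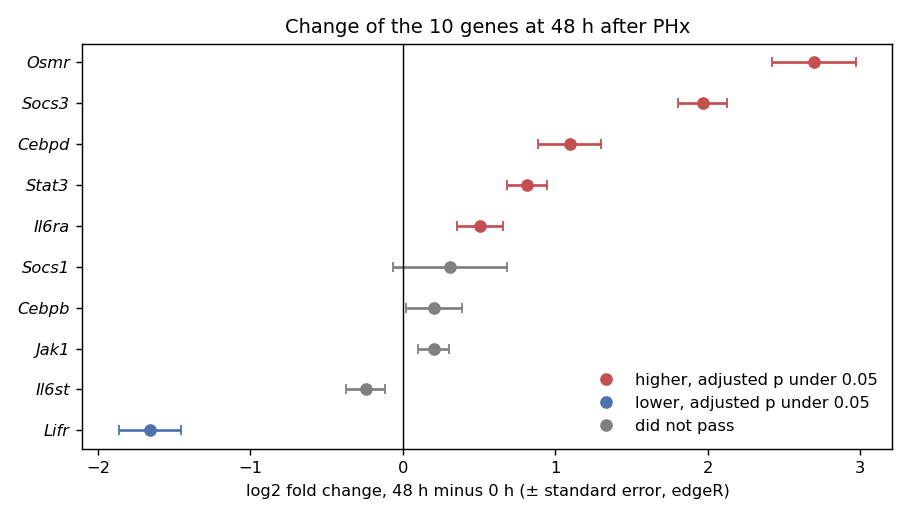
log2 fold change (48 h minus 0 h, horizontal axis) of each gene with its standard error from edgeR, coloured by whether the gene passed an adjusted p of 0.05. Osmr (2.70) and Lifr (-1.66) lie at the ends, and the 4 grey genes lie between -0.24 and 0.31.

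The 10 mRNAs spanned a wide range of abundance, which is compared here only per kb of merged exon. At 0 h the order of mean CPM per kb was Lifr at 94.3, Cebpb at 50.5, Il6st at 26.6, Jak1 at 17.1, Stat3 at 16.3, Il6ra at 6.63, Socs3 at 3.84, Cebpd at 1.96, Osmr at 0.183 and Socs1 at 0.153. Only Jak1 and Stat3, and Osmr and Socs1, overlapped with their neighbour in that order. At 48 h Cebpb led at 58.1, followed by Lifr at 29.8, Stat3 at 28.7, Il6st at 22.5, Jak1 at 19.7, Socs3 at 15.0, Il6ra at 9.42, Cebpd at 4.20, Osmr at 1.19 and Socs1 at 0.191. Lifr and Stat3 then overlapped. Socs3 passed Il6ra and Stat3 passed Il6st between the times, while Osmr, despite its rise, stayed the least abundant of the 4 receptors. Dividing by the longest transcript instead left 8 of 10 genes in the same place at 0 h and 6 of 10 at 48 h.

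**Figure D3:**
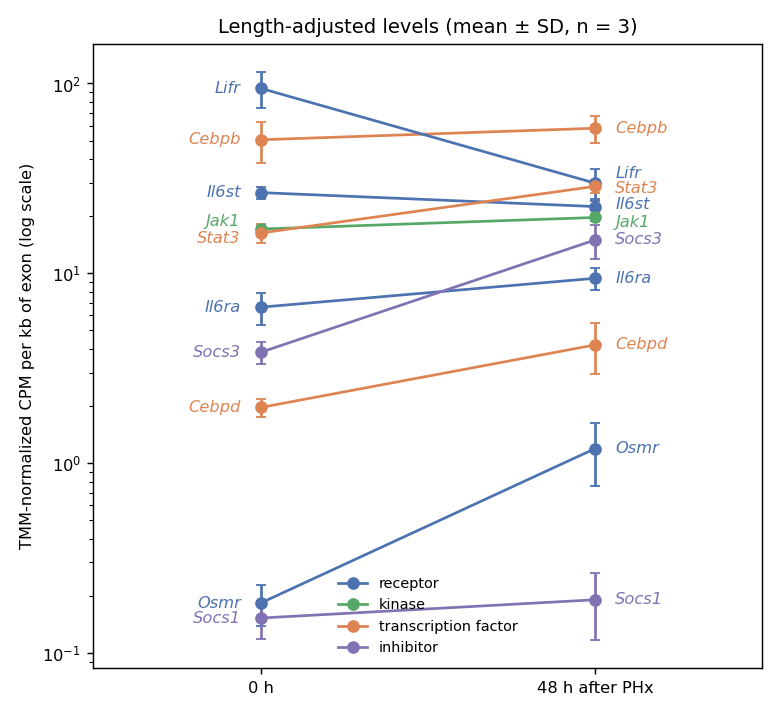
Mean TMM-normalized CPM per kb of merged exon (vertical axis, log scale) at 0 h and 48 h with SD (n = 3), coloured by role. Lifr falls from first place (94.3) to second (29.8), and Socs3 climbs from 3.84 to 15.0.

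The other genes of the pathway were read from 7 lists with 92 genes, of which 79 were tested, 36 were higher and 11 were lower. Over all genes tested, 21.4% were higher and 19.3% lower, against which the counts in each list below are to be read. Whether any list differs from those shares was not tested. Of 10 IL-6 family ligands, 2 could be tested. Clcf1 (cardiotrophin-like cytokine), which signals through the CNTF receptor with gp130 and Lifr, had 0.61, 0.84 and 0.66 CPM at 0 h and 7.36, 4.33 and 4.97 CPM at 48 h, a log2 fold change of 2.97 ± 0.27 (SE, n = 3 per time) with an edgeR adjusted p of 1.66e-05. Ctf1 did not pass (log2 fold change -0.23). Il6 itself had 1, 1 and 2 counts at 0 h and 0 in each library at 48 h, which allows up to 0.0907 to 0.0947 CPM on the scale before TMM. Lif, the ligand of Lifr, had 1, 1 and 3 counts at 0 h and 4, 11 and 9 at 48 h, singled out after its values were seen. It was below the filter on low counts, and with no filter 2 ligands were higher, Clcf1 and Lif. Il27 had at most 3 counts in any library, Osm had 1 count in all 6 libraries together, and Il31 had none.

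Of 10 other STAT3-linked cytokine receptors, 8 were tested, none was higher and 3 were lower, with a median log2 fold change of -0.14. Lower were Cntfr, the alpha chain for CNTF and Clcf1 (log2 fold change -1.72), Csf3r, the G-CSF receptor (-1.15), and Il11ra1, the alpha chain for IL-11 (-0.68). Il11ra1 was the only one of them above 10 CPM, at 21.04, 18.56 and 19.70 CPM at 0 h and 14.4, 11.7 and 10.8 CPM at 48 h. Scaled by library size alone, 1 of the 8 was higher. With a filter of 1 CPM in 3 libraries, Cntfr and Csf3r were not tested and 1 receptor was lower.

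Of 9 other JAKs and STATs, 8 were tested, with 1 higher, 2 lower and a median of -0.16, beside 21.4% higher and 19.3% lower over all genes tested. Jak3, the kinase paired with the common gamma chain and typical of lymphoid cells, rose from 12.6, 13.0 and 13.8 CPM to 28.7, 29.3 and 28.7 CPM, a log2 fold change of 1.13 ± 0.10 (SE, n = 3 per time; edgeR adjusted p = 1.53e-05). Of the 10 lymphocyte markers, 7 had 3 counts or fewer in every library, and the part of lymphocyte RNA in the Jak3 values was not tested. Stat5b, which carries the growth hormone signal in liver, fell by 1.02 on the log2 scale, and Stat6, the IL-4 and IL-13 factor, fell by 0.33 on that scale. The call on Stat6 was lost in 5 of 18 alternatives, and 3 of the 8 genes were lower with upper quartile normalization.

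Of 14 other inhibitors of JAK-STAT signalling, all were tested, 4 were higher and none was lower, with a median of 0.22. By the same rule 21.4% of all genes tested were higher and 19.3% lower, and a difference from those shares was not tested. Higher were the phosphatases Ptpn1 (log2 fold change 0.89) and Ptpn11 (0.50) and the STAT-binding proteins Pias1 and Pias2 (0.36 each). Ptpn1 dephosphorylates JAK kinases, and Ptpn11 (SHP2) binds gp130 at the site where Socs3 also docks. The call was lost in 4 of 18 alternatives for Pias1 and in 3 of 18 for Pias2, and 2 of the 14 genes were higher without 48 h replicate 2 or with a replicate block and GC correction. Scaled by library size alone, 8 of the 14 were higher, and 1 was lower with upper quartile normalization, TMM factors from protein-coding genes, no filter or no 0 h replicate 2, and 2 were lower without 48 h replicate 3.

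Of 5 other C/EBP family genes, Cebpa, the factor that maintains the mature hepatocyte programme, fell from 659.7, 392.8 and 537.2 CPM to 203.8, 290.2 and 315.7 CPM, a log2 fold change of -0.97 ± 0.21 (SE, n = 3 per time; edgeR adjusted p = 0.00449). Cebpg was higher (0.37), a call that was lost in 13 of 18 alternatives, and the other 3 did not pass. With upper quartile normalization or TMM factors from protein-coding genes, 2 of the 5 were lower.

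Of 20 general STAT3 target genes, 19 were tested, 11 were higher and 4 lower, with a median of 0.64. The largest rises were in Birc5 (survivin, log2 fold change 4.89), Cdkn1a (the cell cycle inhibitor p21, 3.43), Ccnd1 (cyclin D1, 3.41) and Steap4 (a metalloreductase, 2.04). Birc5 and Ccnd1 are also general genes of dividing cells. Lower were Junb (-0.88), Il4ra (-0.84), Vegfa (-0.83) and Pim3 (-0.78), so the list did not move one way.

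Of 24 acute-phase genes, 23 were tested, 18 were higher and 1 lower, with a median of 2.02. The largest rises were in Lcn2 (lipocalin 2, an iron-sequestering protein, log2 fold change 9.42), Saa2 (8.55) and Saa1 (7.08), the serum amyloid A proteins, and Mt2 (metallothionein 2), whose place is uncertain for its few counts. Saa1 and Saa2 are near-identical copies, so the split of reads between them is uncertain. Mt2 had 2 counts in all 0 h libraries and 174 in all 48 h libraries, a ratio of 78.0 with an exact interval of 21.3 to 649.0 at 95% confidence that covers counting error only and takes in the 47.5-fold rise of Orm2 (orosomucoid 2), the next in size. Mt2 also shares 73.5% of its exon bases with a gene on the other strand. Crp, a minor acute-phase protein in the mouse, was lower (-0.41), a call lost in 7 of 18 alternatives. The count of higher genes in this list ranged from 14 to 21 when each library was left out in turn, with 14 without 0 h replicate 1 and 21 without 48 h replicate 3.

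Among the targets with a matched promoter, the STAT letters described above for Socs3 were in 3 of 17 general targets and 5 of 19 acute-phase genes, and the C/EBP letters in 1 of 17 and 11 of 19. These are counts of genes, which can have several promoters. The shares of 8.30% (STAT) and 10.8% (C/EBP) given above are of single promoters, so the units differ. Short windows around the match, in capitals, are shown for some of the target genes that rose, chosen with their values known, to set the letters beside the values. Steap4 went from 85.3, 106 and 86.3 CPM to 478, 295 and 367 CPM and holds both kinds of match. Icam1, an adhesion molecule, rose by a log2 fold change of 1.75, and Apcs, serum amyloid P, by 3.25. Fgb, the fibrinogen beta chain, rose by 0.84 and also holds both, though without 0 h replicate 1 or 3 its edgeR adjusted p was 0.0705 or 0.0681, against a range of 0.000292 to 0.0705 over 18 alternatives. Without 48 h replicate 1 the log2 fold change was 0.49 for Fgb, 2.59 for Apcs and 8.77 for Lcn2.
Steap4 STAT, chr5:7960346-7960374, plus strand: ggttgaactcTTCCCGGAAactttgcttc
Icam1 STAT, chr9:21015888-21015916, plus strand: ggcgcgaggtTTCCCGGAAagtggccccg
Apcs STAT, chr1:172895280-172895304, minus strand: atcttcTTCTAGGAAagcacagggt
Fgb STAT, chr3:83050007-83050035, minus strand: gactcaatgaTTCGAGGAAccccctgtgt
Steap4 C/EBP, chr5:7960375-7960402, plus strand: acagctcctcTTGCGAAAtcaagcgggc
Fgb C/EBP, chr3:83049926-83049953, minus strand: tgggaagatgTTGCTCAAatgataaagc
Lcn2 C/EBP, chr2:32387938-32387965, minus strand: gcccttcctgTTGCTCAAccttgcacag
Saa1 C/EBP, chr7:46743145-46743172, minus strand: tgtgctcccaTTGCACAAtgagggagaa
Saa2 C/EBP, chr7:46751640-46751667, plus strand: tgtgctcccaTTGCACAAtgagggaaaa
The Saa1 and Saa2 windows carry the same match in nearly the same surroundings. The Lcn2 window, like the Socs3 promoter above, lies within the gene's GENCODE span. Lcn2 stood at 4.39, 3.80 and 3.28 CPM at 0 h and at 4498, 1903 and 1475 CPM at 48 h. A match of letters is not a measured binding site, and genes with STAT letters also include some that did not pass the test. Hamp, the iron hormone hepcidin, holds them at -97 to -89 (log2 fold change -0.0070), and Irf1, an interferon-response transcription factor, at -90 to -82 (0.18). Both were singled out after their values were seen.

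**Figure D4:**
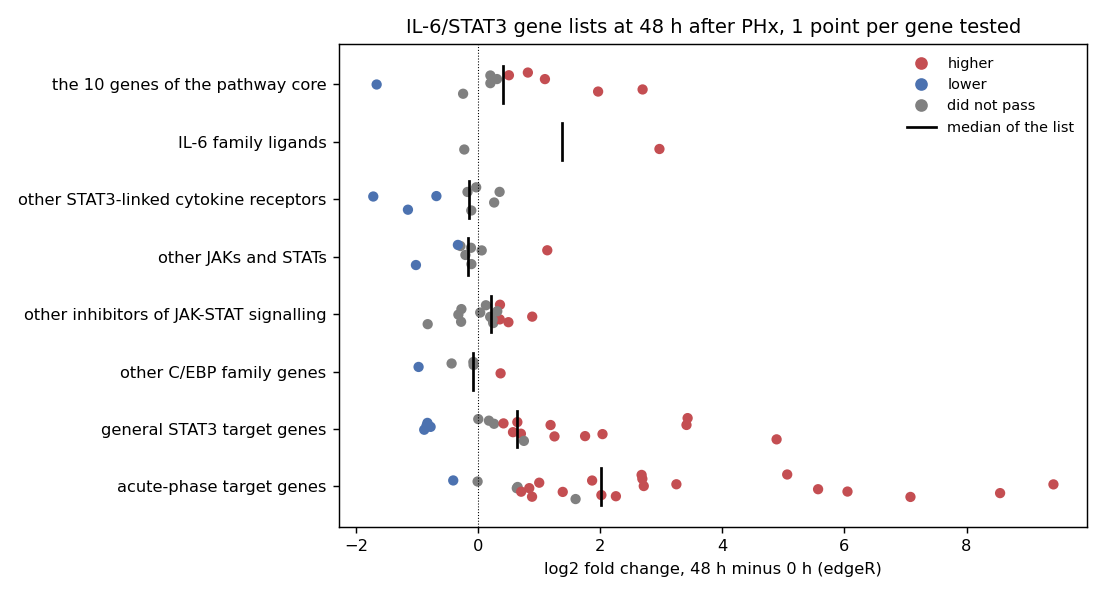
log2 fold change (48 h minus 0 h, horizontal axis) of every tested gene in the 10-gene core and the 7 other lists, 1 point per gene coloured by call, with a black line at each list's median (2 genes only for the ligands). The acute-phase list reaches furthest to the right, with a median of 2.02, and the other receptor list has points to the left (3 lower) and none called higher.

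The 48 h libraries were not alike in these genes. Replicate 1 was the highest of the 3 in 4 of the 5 core genes that rose, all but Il6ra, and in 17 of the 18 higher acute-phase genes, all but Mt2. Over all 3638 genes higher at 48 h it was the highest in 46.0%. The ratio of replicate 1 to the mean of replicates 2 and 3 was 1.79 for Osmr, 1.52 for Cebpd, 1.39 for Socs3 and 1.14 for Stat3, and its median was 1.94 over the higher acute-phase genes and 1.05 over all higher genes. Lifr went the other way, with replicate 1 the lowest at 0.706 of the mean of the others. A2m, singled out after its values were seen, had 245 counts in replicate 1, 8 and 13 in replicates 2 and 3, and 8, 9 and 0 at 0 h, and was not tested. Without replicate 1 the same number of core genes was called, 5 higher and 1 lower, and 16 acute-phase genes were higher.

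**Figure D5:**
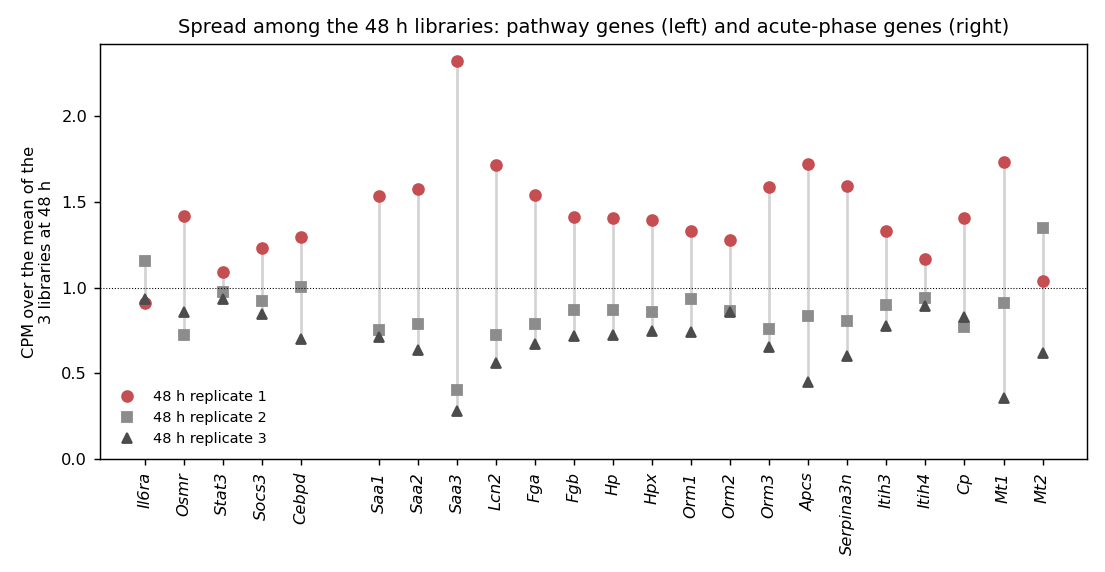
CPM in each 48 h library divided by the mean of the 3 (vertical axis, linear from 0) for the 5 core genes called higher (left) and the 18 acute-phase genes called higher (right), with a symbol for each replicate. Replicate 1 (red) is on top in 4 of 5 and in 17 of 18.

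The genes whose log2 CPM followed Osmr most closely over the 6 libraries, among 7564 with a mean of at least 10 CPM, were Tsr1 (Pearson r = 0.999), Plekhg2, Dnm1l, Galns and B230219D22Rik (0.995). For Lifr, among 7563, they were Ppp4r1l-ps (0.998), Slc38a9, Akap8l, Arhgef1 and Entpd8 (0.995). All 6 points share the contrast between the times, so such values are a description only.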

How the data were processed

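Per the labels, the authors isolated hepatocytes by collagenase perfusion, extracted RNA with TRIzol and deposited, for each of 6 libraries, raw read counts per gene with no normalization. The submitters' processing notes name FastQC 0.11.5, Trim Galore 0.6.4, STAR 2.6, HTSeq 0.12.4, DESeq2 and the build mm10. The counting mode and strand setting are not given in the sources used here. Gene identifiers are those of GENCODE M21, from which names, coordinates and exon lengths were taken. Gene counts summed to 31419443 to 36346220 per library, and TMM factors were 0.914 to 1.11. Reads assigned to no gene and ambiguous reads were left out. They made up 24.3% to 32.7% and 4.27% to 5.29% of the total of gene counts, no-gene reads and ambiguous reads. Reads carry no molecular identifiers, so floors and intervals cover counting error only.

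Differences were tested in R 4.3.3 with edgeR 4.0.16 (TMM, glmQLFit and glmQLFTest, time as the only term) over genes that reached 10 counts in 3 or more libraries, with Benjamini-Hochberg adjustment across all of them. The standard error is the log2 fold change divided by the square root of the F statistic. The test was first tried on simulated counts. Alternatives were DESeq2 1.42.0, limma-voom (limma 3.58.1), other normalizations and filters, a fold threshold, GC correction, the replicate number as a block, and leaving out each library.

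The genes and lists were chosen with earlier results of these data known. Named from each list are the 4 largest changes called in each direction, ligands at 3 counts or fewer in every library, and for Osmr and Lifr the 5 genes most like each. The symbol Ddit3 had 2 identifiers, and the one with more exon bases was used. RefSeq promoters carry the build GRCm38.p6, and Cebpd had no match there.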

Additional observations from a re-analysis of the deposited data

How the results depend on the processing

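Osmr, Lifr, Stat3, Socs3 and Cebpd kept their direction and their call under all 18 alternatives with a fit, with log2 fold changes of 2.34 to 2.91, -1.82 to -1.45, 0.73 to 1.02, 1.77 to 2.16 and 0.85 to 1.29. With a further minimum of 1 on the size of the log2 fold change, 3 of the 10 genes were higher and 1 lower, 24 of the other pathway genes were higher and 3 lower, and 1651 of all genes higher and 1353 lower. Scaling by library size alone left 2110 genes lower, and 71.6% of calls were then higher, against 52.5% with TMM and 44.5% with upper quartile normalization. The 10 genes gave 4 to 6 higher and 1 lower under every other setting. Leaving out each library in turn, the log2 fold change of Socs1 ranged from -0.0572 (without 48 h replicate 3) to 0.481, and the difference in the share of counts on stellate and fibroblast markers from -0.00193 to 0.000378 percentage points, turning positive without 0 h replicate 2. Dividing by the longest transcript left 6 of 10 genes in the same place at 48 h. The cause of these changes was not tested.

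The replicate numbers are shared by mice that differ, and deviations of same-numbered libraries correlated at 0.0335, -0.0674 and -0.138, so the numbers were not taken to pair the samples. A replicate block in the fit gave 3237 higher and 2884 lower calls over all genes, 5 and 1 among the 10 genes and 33 and 9 among the other pathway genes. No call on the 10 genes changed. Among the 10 genes Socs1 had the fewest counts, at most 28 per library, and the largest standard error (0.37).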
